A study of Homo sapiens with 4 samples.

Results

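The HOX genes of clusters A to D were described in 2 cell lines of squamous carcinoma of the head and neck (HNSCC) and in their derivatives that resist cisplatin. The members were the genes whose name on the array was HOX followed by a cluster letter from A to D and a number, which gave 39 of 43305 genes, 11 in cluster A, 10 in cluster B, 9 in cluster C and 9 in cluster D. RNA was hybridised to 4 single-colour Agilent arrays, 1 for each of HN4, HN4_CR, HN30 and HN30_CR. HN4 and HN30 are established human HNSCC lines grown in DMEM with fetal bovine serum. HN4_CR and HN30_CR, which the study also writes with the ending DDP, were raised from them by growth in rising doses of cisplatin, which cross-links DNA. The resistant lines were kept in 20 μM cisplatin for 48 h, and no cisplatin is recorded for the parental lines. No array measured the resistant lines without the drug, so the selected trait and the drug in the medium cannot be told apart. Each group has 1 array, so differences within a pair of lines have no replicates and no test. The precision is limited by the number of arrays.

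HOX genes encode transcription factors that bind DNA through the homeodomain and give body regions their identity along the head-to-tail axis. They lie in clusters in the same order in which they are used in the embryo, from low numbers, which act towards the head, to high numbers, which act towards the tail and the ends of the limbs, and genes of equal number in different clusters are paralogs. Adult epithelia keep part of this pattern, Polycomb complexes hold silent HOX genes off while Trithorax complexes keep active ones on, and HOX genes are often expressed out of place in squamous carcinomas.

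The array carried 48 HOX probes of 60 bases, 1 for each of 32 genes and several for the other 7. On hg19 the probes of cluster A spanned 104 kb of chromosome 7, those of B 194 kb of chromosome 17, those of C 110 kb of chromosome 12 and those of D 94.8 kb of chromosome 2. Read as codons, 9 of the probes fell in the homeobox, the part of these genes that is most alike, and the longest run of bases that probes of different HOX genes shared was 13. The 4 probes below each hold a part of the third helix of the homeodomain, which lies in the major groove of DNA, and the parts are not the same in all of them. They are shown because this helix is where the members are most alike and because 2 of them belong to genes on which later results turn, HOXC12 and HOXD9. The capitals mark the codons of that helix in each probe. The positions on hg19 are chr17:46620897-46620956 on the minus strand, and chr12:54383100-54383159, chr12:54350226-54350285 and chr2:176988842-176988901 on the plus strand.
HOXB2: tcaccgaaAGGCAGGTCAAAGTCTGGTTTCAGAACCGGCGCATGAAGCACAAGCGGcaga
HOXC10: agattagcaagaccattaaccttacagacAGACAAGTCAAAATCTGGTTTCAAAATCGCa
HOXC12: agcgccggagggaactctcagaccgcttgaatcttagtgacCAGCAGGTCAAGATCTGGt
HOXD9: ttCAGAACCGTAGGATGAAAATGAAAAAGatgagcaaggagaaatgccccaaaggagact

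A level is given as the log2 of the background-subtracted signal minus the 75th percentile of the same array, so that 0 is the 75th percentile. A probe is called dim when the scanner did not mark it as well above background, and a gene is dim when all its probes are. Of the 39 HOX genes, 34 (87.2%) were well above background in HN4, 31 (79.5%) in HN4_CR, 34 in HN30 and 34 in HN30_CR. Among all genes the shares were 57.4%, 59.1%, 55.4% and 64% in the same order. HN4_CR was thus the array with the fewest HOX genes above background although it had more genes of any kind above background than HN4. HOXB1, HOXD1, HOXD3, HOXD4 and HOXD12 were dim on all 4 arrays, and HOXC11 and HOXD13 were among the genes dim in HN4_CR alone. In cluster D the genes with low numbers were therefore below detection, and HOXD8 to HOXD11 with HOXD13 carried the signal, while clusters A, B and C were measured nearly from end to end. In RNA from whole cultures, fewer cells that express a gene and less RNA per cell cannot be told apart.

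**Figure D1:**
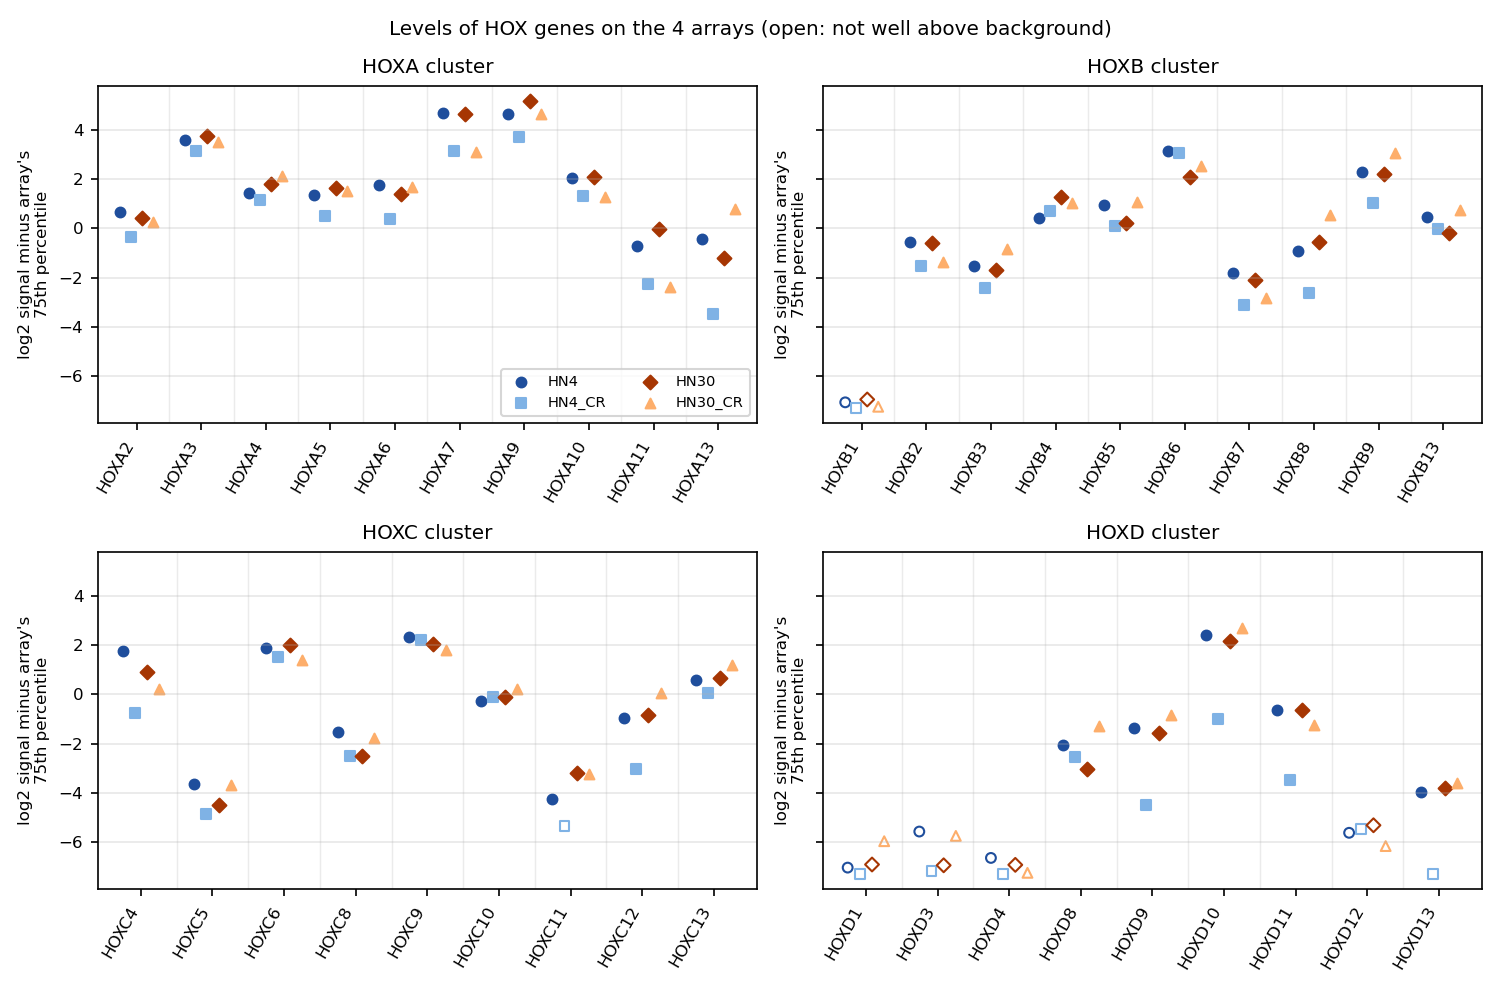
Levels of the HOX genes, 1 of which is not drawn (y axis, log2 signal minus the array's 75th percentile) on the 4 arrays, by cluster and in order of number (x axis), with open symbols for probes not well above background. HN4_CR has open symbols at HOXC11 and HOXD13, which are filled on the other arrays, and lies far under the other 3 arrays at HOXA13, HOXC12 and HOXD9 to HOXD11.

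In the HN4 pair the HOX genes were lower in the resistant cells. A gene was called lower when the log2 difference was below -2 with signal well above background on the parental array, and higher when it was above 2 with such signal on the resistant array. By this rule 7 of the 39 HOX genes were called lower in HN4_CR, where 2.2% of all genes measured in the pair were, and 0 were called higher, where 3.6% of all genes were. The 7 were HOXA13, HOXC4, HOXC12, HOXD9, HOXD10, HOXD11 and HOXD13, and 6 of them have a number of 9 or more. Of the 34 HOX genes measured in the pair, which means well above background on 1 or both arrays, 32 had a difference below 0, against 55.9% of all genes so chosen, and 15 were below -1 (44.1%), against 8.64%. The median difference of the HOX genes was -0.97 and that of all genes -0.08, and it was -0.94 over all 39 HOX genes with no filter. With dim values set to the lowest signal well above background 6 of the 7 were called (1.43% of all genes), without HOXD13. Another background correction, normexp, adds an offset of 50 to every signal, which makes differences between low signals smaller. With it 2 of the 7 were still called, HOXC4 and HOXD10, and the share of all genes was 0.65%. The median under it was -0.74, and under each of the scalings tried 31 or more of the 34 genes stayed below 0.

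**Figure D2:**
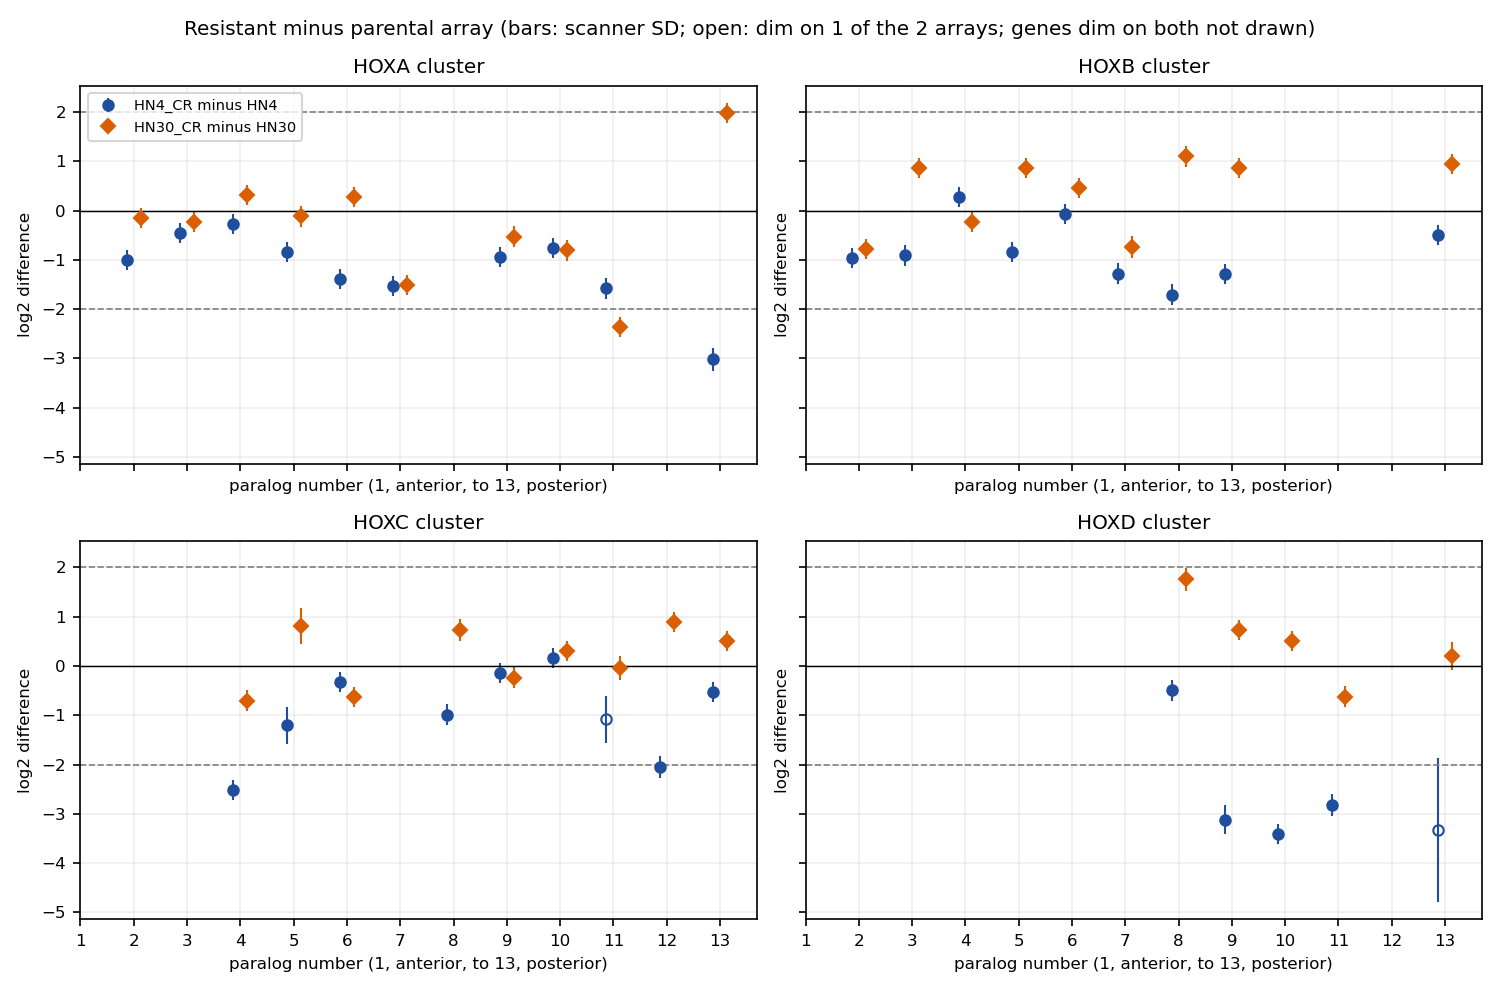
Differences of the HOX genes, 1 of which is not drawn, between resistant and parental arrays (y axis, log2) against their number in the cluster (x axis), with bars of 1 scanner SD, open symbols where 1 of the arrays was dim, and dashed lines at the thresholds of -2 and 2. In HN4_CR nearly all points lie under 0 and HOXD9, HOXD10, HOXD11 and HOXD13 lie between -2.82 and -3.41, while the points of HN30_CR lie on both sides of 0, with a median that changes sign when arrays are scaled by their medians.

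The largest difference, that of HOXD10, lay in the posterior part of cluster D, a group of genes that shape the limb ends and the urogenital tract. HOXA13 of cluster A, with -3.02, exceeded HOXD11. Under normexp HOXC4 (-2.31) and HOXA13 (-1.97) exceeded HOXD11 (-1.85) and HOXD9 (-1.59). HOXD10, which acts in hindlimb and lumbar motor neurons, had a level of 2.41 in HN4, -1.01 in HN4_CR, 2.18 in HN30 and 2.69 in HN30_CR. Only HN4_CR was low, 10.66-fold under HN4 (difference -3.41, scanner SD 0.20, from the error the scanner software gives for each spot). HOXD11, which acts with HOXA11 in the forearm and kidney, was at -0.63, -3.46, -0.62 and -1.24 in the same order of arrays. It differed by -2.82 in HN4_CR (scanner SD 0.23). HOXD13, which patterns the digits, was at -3.96 in HN4, -3.80 in HN30 and -3.60 in HN30_CR and was dim in HN4_CR. For a dim value the bound uses the lowest normalized signal well above background on that array or the dim value, whichever is higher, and HOXD13 was at least 2.04-fold lower in HN4_CR than in HN4, less than its measured difference of -3.32 (scanner SD 1.46).

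HOXD9, a paralog that acts in the forelimb and lumbar region, was measured by a pair of probes which disagreed in size. Its brighter probe was at -1.38 in HN4, -4.50 in HN4_CR, -1.58 in HN30 and -0.85 in HN30_CR, a difference of -3.12 in HN4_CR (scanner SD 0.29). The other probe, the one in the homeobox shown above, was at -3.51, -4.47, -4.12 and -3.14, a difference of -0.96. Both were lowest in HN4_CR, where the lowest level well above background was -4.99, but only the brighter one passed the threshold. The genes from HOXD13 to HOXD9, which lie within 28.5 kb on hg19, were thus all low in HN4_CR where they were measurable, and HOXD12 among them was dim everywhere. Their neighbour HOXD8, a gene of the trunk, was at -2.04 in HN4 and -2.53 in HN4_CR, a difference of -0.49 (scanner SD 0.21).

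In cluster A the low gene of HN4_CR was HOXA13, which stands at the posterior end of the cluster and patterns the digits and the hindgut. Its level was -0.44 in HN4, -3.46 in HN4_CR, -1.19 in HN30 and 0.79 in HN30_CR. HN4_CR was the lowest array and HN30_CR the highest, with a difference of -3.02 in the HN4 pair (scanner SD 0.23) and of 1.98 in the HN30 pair (scanner SD 0.21), just inside the threshold. The other 10 genes of the cluster differed by -0.28 to -1.58 in HN4_CR, and all 11 were below 0 (median -0.94). Next in size after HOXA13 were HOXA11, HOXA7 and HOXA6, with -1.58, -1.53 and -1.38. The genes of the hindbrain and neck, HOXA2 to HOXA5, differed less, with -0.998 for HOXA2, -0.45 for HOXA3, -0.28 for HOXA4 and -0.84 for HOXA5. HOXA6, HOXA9 and HOXA10 were measured by several probes, all of which lay below 0 in HN4_CR, from -0.70 for a probe of HOXA9 to -1.38 for the brighter probe of HOXA6.

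In cluster C, HOXC4 and HOXC12 passed the threshold. HOXC4, which acts at the level of the neck and is expressed in many blood and epithelial cells, was at 1.77 in HN4, -0.75 in HN4_CR, 0.91 in HN30 and 0.21 in HN30_CR. It was lower in both resistant lines, by a difference of -2.52 (scanner SD 0.20) in HN4_CR and -0.70 in HN30_CR. HOXC12, a posterior gene of the tail and skin appendages, was at -0.98, -3.02, -0.84 and 0.05, with HN4_CR lowest and HN30_CR highest. Its difference in HN4_CR was -2.05 (scanner SD 0.22), the closest to the threshold of the 7, and it was not called with a pseudocount of 16 or with the trend of differences with brightness removed. HOXC13, which drives hair and nail keratins, differed by -0.53, and HOXC6, HOXC9 and HOXC10 lay between -0.33 and 0.16. HOXC11 was dim in HN4_CR and at least 1.66-fold lower there than in HN4, while HOXC5 and HOXC8 differed by -1.20 and -0.99.

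In cluster B no gene passed the threshold in HN4_CR, and 8 of the 9 measured genes were below 0 (median -0.91). HOXB8, a trunk gene that also acts in blood progenitors, was at -0.92 in HN4, -2.63 in HN4_CR, -0.55 in HN30 and 0.55 in HN30_CR. HOXB9, a thoracic gene, was at 2.31, 1.02, 2.19 and 3.05. In both genes HN4_CR was the lowest array and HN30_CR the highest, with differences in the HN4 pair of -1.71 (scanner SD 0.21) and -1.29 (scanner SD 0.20). HOXB13, which acts in the tail and the prostate, differed by -0.50. Among the hindbrain and trunk genes HOXB2 differed by -0.96, HOXB3 by -0.91, HOXB5 by -0.83, HOXB7 by -1.28 and HOXB6 by -0.06, whose sign changed with quantile normalization. HOXB4, known for the renewal of blood stem cells, was above 0 with 0.28 for its brighter probe. Its other probe was well above background in HN30_CR alone, so the probes of this gene differ in pattern, and with the mean of its probes the gene was at -1.03.

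By position, the HOX genes numbered 9 to 13 had a median difference of -1.29 in HN4_CR over the 15 measured, against -0.92 over the 14 measured of those numbered 4 to 8 and -0.91 over the 5 measured of those numbered 1 to 3. Without cluster D, the 11 genes numbered 9 to 13 had a median of -0.94. The lower median of the posterior group in HN4_CR therefore came with HOXD9, HOXD10, HOXD11 and HOXD13. Together with HOXD8, which is in the group 4 to 8, these 5 genes had a median of -3.12. That is the value of the brighter probe of HOXD9, whose other probe gave -0.96. The median was -2.97 over the genes well above background on both arrays, without HOXD13. Under normexp HOXD9, HOXD10 and HOXD11 differed by -1.59, -3.09 and -1.85. The smallest difference of HOXD13 under the alternatives was -0.68. In HN30_CR the same groups had medians of 0.31, 0.29 and -0.22, which lie within the shift of 0.42 that another scaling gives in this pair and have no settled sign.

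Promoters of genes called lower in HN4_CR are given here because these genes were low together on that array. RefSeq promoters of GRCh38.p14 were matched by symbol for 20 of the 39 HOX genes, HOXD9 not among them, and those of 3 called genes are printed, HOXD10 and HOXA13, which had the largest differences among those of the 20 that were measured on both arrays, and HOXD13, which was dim in HN4_CR and has no place in that order. Each is the 250 bases before the start site, on the strand of the gene. They lie at chr2:176116528-176116777 on the plus strand, chr2:176092471-176092720 on the plus strand and chr7:27200092-27200341 on the minus strand. Capitals mark matches to any of 4 motifs on either strand, the TATA box TATAAA, the core TGACG bound by CREB proteins, the core TTTATG bound by CDX proteins and the site TGATNNAT of HOX and PBX proteins together.
HOXD10: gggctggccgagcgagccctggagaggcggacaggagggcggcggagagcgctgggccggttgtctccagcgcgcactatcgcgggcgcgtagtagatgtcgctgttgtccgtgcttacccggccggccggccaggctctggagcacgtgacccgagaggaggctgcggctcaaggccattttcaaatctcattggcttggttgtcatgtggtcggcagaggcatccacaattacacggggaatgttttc
HOXD13: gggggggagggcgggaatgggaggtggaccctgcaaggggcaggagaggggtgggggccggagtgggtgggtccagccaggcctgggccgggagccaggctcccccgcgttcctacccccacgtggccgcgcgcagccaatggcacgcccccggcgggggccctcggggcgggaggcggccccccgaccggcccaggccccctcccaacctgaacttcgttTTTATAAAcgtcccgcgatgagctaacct
HOXA13: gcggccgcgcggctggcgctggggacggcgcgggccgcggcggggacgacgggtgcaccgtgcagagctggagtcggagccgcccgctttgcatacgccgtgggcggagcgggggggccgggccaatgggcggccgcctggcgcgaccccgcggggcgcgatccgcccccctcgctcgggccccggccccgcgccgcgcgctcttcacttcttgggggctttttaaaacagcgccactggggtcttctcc
In these windows HOXD13 held TATAAA once on each strand in overlap, and the windows of HOXD10 and HOXA13 held none of the 4 motifs. HOXD11, also called lower and matched but not printed, held TGACG and TGATNNAT. Of 35093 promoters of the same length, 3762 held TATAAA, and 21.2% held TGACG, 9.64% TTTATG and 6.48% TGATNNAT. Of the 27 promoters of the 20 matched HOX genes, 5 held TATAAA, 6 TGACG, 3 TTTATG and 3 TGATNNAT. A match is a run of letters and does not show binding.

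In the HN30 pair the HOX genes went both ways. By the same rule 1 of the 39 was called lower in HN30_CR, where 2.74% of all genes were, and 0 were called higher, where 8.35% of all genes were. The median difference of the 34 measured HOX genes was 0.24 and that of all genes 0.06, with 18 HOX genes above 0 (52.9%, against 52.8% of all genes) and 16 below. Scaling the arrays by their medians shifted the median of all genes in this pair by -0.42 and turned the HOX median to -0.18. The HOX median lay above that of all genes by 0.18, and by 0.08 under normexp to 0.34 with the trend of differences with brightness removed. The quartiles of the HOX genes were -0.56 and 0.80.

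The gene called lower in HN30_CR was HOXA11, which acts in the forearm, kidney and uterus. Its level was -0.70 in HN4, -2.28 in HN4_CR, -0.01 in HN30 and -2.37 in HN30_CR. Both resistant arrays were low and both parental arrays high, with a difference of -2.36 in the HN30 pair (scanner SD 0.21) and -1.58 in the HN4 pair. Under normexp the difference in HN30_CR was -1.79 and the gene was not called. HOXA7, a trunk gene that also restrains keratinocyte differentiation, had the same pattern at a smaller size, with 4.67 in HN4, 3.15 in HN4_CR, 4.63 in HN30 and 3.12 in HN30_CR. Its differences were -1.53 and -1.51, each with a scanner SD of 0.20. HOXA10, which acts in the uterus and blood, was at 2.06, 1.30, 2.08 and 1.28, so its resistant arrays were also both under its parental ones, by -0.76 and -0.81. Its other probe gave -1.31 and -0.93.

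The other low genes of HN30_CR were HOXB2, HOXB7, HOXC4, HOXC6 and HOXD11, with differences from -0.62 to -0.78, and HOXA9, with -0.53. Above 0 and nearest to the threshold were HOXA13 with 1.98 and HOXD8 with 1.76 (scanner SD 0.23), whose level was -3.05 in HN30 and -1.29 in HN30_CR. HOXB8 followed with 1.101 and HOXB13 with 0.95 (scanner SD 0.20 each). HOXB3, HOXB5, HOXB9, HOXC5, HOXC8, HOXC12 and HOXD9 lay between 0.73 and 0.89, and HOXB6, HOXC13 and HOXD10 between 0.46 and 0.52. HOXA2 and HOXC11 lay near 0, with -0.15 and -0.04. These genes kept their sign under every scaling and background correction tried. For HOXA3, HOXA4, HOXA5, HOXA6, HOXB4, HOXC9, HOXC10 and HOXD13 the sign in HN30_CR changed with the setting.

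**Figure D3:**
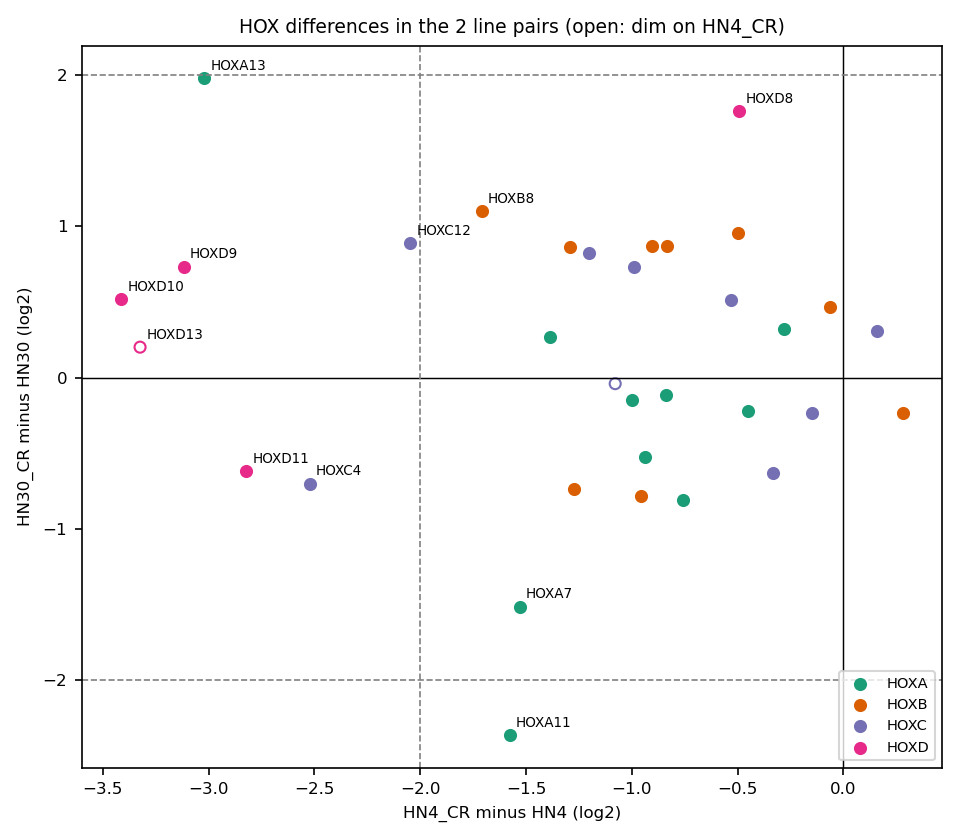
Difference in the HN30 pair (y axis, log2) against the difference in the HN4 pair (x axis, log2) for the measured HOX genes, 1 of which is not drawn, coloured by cluster, with open symbols for genes dim in HN4_CR and dashed lines at the thresholds. HOXA7 and HOXA11 lie low on both axes, HOXA13 lies at -3.02 and 1.98, and 16 of the 31 genes measured on all arrays are below 0 in HN4_CR and above 0 in HN30_CR, a count that moves with the scaling of the HN30 pair.

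The resistant comparisons share no array. Over the 31 HOX genes well above background on all 4 arrays, 13 (41.9%) were below 0 in both resistant lines, 16 (51.6%) were below 0 in HN4_CR and above 0 in HN30_CR, 1 (HOXC10) was above 0 in both and 1 (HOXB4) was above 0 in HN4_CR alone. Among the 22234 genes of any kind measured on all arrays, the shares in the same order were 35%, 22.9%, 23.3% and 18.8%. The HOX genes thus had fewer members above 0 in HN4_CR than all genes, while in HN30_CR they were divided. By cluster, the median difference in HN30_CR was -0.22 for cluster A, 0.86 for B, 0.31 for C and 0.52 for D, and in HN4_CR it was -0.94, -0.91, -0.99 and -3.12. Cluster A had a median below 0 in both lines, and with median scaling so did cluster C, whose HN30_CR median, that of HOXC10, was then -0.11. The HN30_CR median of cluster A was the value of HOXA3, whose sign changed with quantile normalization. The HN4_CR median of cluster D was the value of the brighter probe of HOXD9, whose other probe gave -0.96.

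Limma was fitted to the 4 arrays together, blocked by cell line, with 1 residual degree of freedom. At an adjusted p of 0.05 (Benjamini-Hochberg) 0 of 29585 genes passed (0%), and 2531 had an unadjusted p under 0.05. With so few arrays a count of 0 does not show that genes were alike. Of the 34 HOX genes fitted, 0 passed and 5 had an unadjusted p under 0.05, HOXA7, HOXA11, HOXB7, HOXC4 and HOXD11. For HOXA11 limma gave a mean difference of -1.97 (standard error 0.39, adjusted p = 0.468), lower in 2 of 2 lines, and for HOXA7 -1.52 (standard error 0.36, adjusted p = 0.490), also lower in 2 of 2 lines.

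The HOX differences between the parental lines (HN30 minus HN4) were small beside the threshold, though 3 genes lay below -1 and 1 above 1. Between HN30 and HN4, 0 of the 39 HOX genes passed the threshold in either direction, where 0.902% of all genes were higher in HN30 and 1.9% lower. The differences of the 34 measured HOX genes ran from -1.06 for HOXB6 to 1.06 for HOXC11, with a median absolute difference of 0.32, and that of all genes was 0.31. At this size the HOX genes were as close between the lines as genes in general, and the comparison shows no feature of their own. Of the 7 genes called lower in HN4_CR, HOXC4 and HOXA13 differed between the parental lines by -0.85 and -0.75, and HOXC12, HOXD9, HOXD10, HOXD11 and HOXD13 by 0.14, -0.20, -0.23, 0.01 and 0.16.

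Between the resistant lines the HOX levels were further apart. In HN30_CR 9 of the 39 HOX genes were called higher than in HN4_CR, where 5.67% of all genes measured in this pair were. Of the HOX genes 34 were measured in it, and 0 were called lower, where 2.63% of all genes were. The 9 were HOXA13, HOXB8, HOXB9, HOXC11, HOXC12, HOXD9, HOXD10, HOXD11 and HOXD13, and HOXA13 had the largest difference, 4.25 (scanner SD 0.23). HOXC11 and HOXD13, dim in HN4_CR, were at least 3.37-fold and at least 2.63-fold higher in HN30_CR. The count was 4 under normexp (1.45% of all genes), 5 with a pseudocount of 16 (2.39%) and 6 with median scaling (4.23%), where HOXB9, HOXC11 and HOXD11 were not called. It was 7 (3.47% of all genes) when dim values were set to the lowest signal well above background, without HOXC11 and HOXD13, whose bounds lie under the threshold. The median absolute difference over the 31 genes measured on all arrays was 0.95 between the resistant lines and 0.32 between the parental lines, and for all genes it was 0.47 and 0.27. These comparisons use the same arrays as the resistant against parental ones and add no independent sample.

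**Figure D4:**
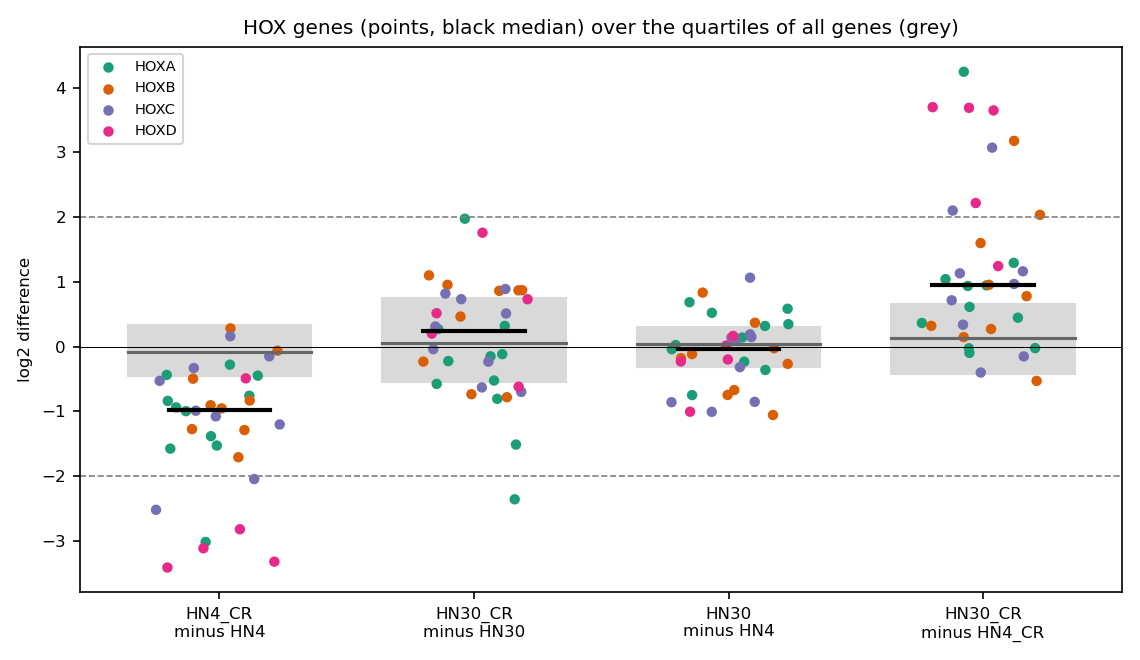
Log2 differences (y axis) of the HOX genes measured in each of the 4 comparisons (x axis), as points coloured by cluster and spread sideways for visibility, with their median in black over the quartiles (grey box) and median (grey line) of all genes. The HOX median is -0.97 in HN4_CR minus HN4 and 0.95 in HN30_CR minus HN4_CR, where that of all genes is -0.08 and 0.13, and -0.03 in HN30 minus HN4, while that of HN30_CR minus HN30, 0.24, turns to -0.18 with median scaling.

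The HOX clusters also hold noncoding transcripts, several of them on the strand opposite to a HOX gene, and 16 of them were on the array. In HN4_CR 2 were called lower and 0 higher, and in HN30_CR 3 were called higher and 0 lower, with medians of -0.59 over 14 measured and 0.40 over 15 measured (-0.02 with median scaling). Of all genes 2.2% were called lower in HN4_CR and 8.35% higher in HN30_CR. HOXA-AS2 was at -1.20 in HN4, -3.44 in HN4_CR, -1.52 in HN30 and -0.50 in HN30_CR, a difference of -2.25 in HN4_CR (scanner SD 0.23). Its other probes gave -3.87 and 0.04, so its probes disagreed. HOXC13-AS was at 0.61, -1.73, 1.24 and 0.65, with HN4_CR lowest by -2.35 (scanner SD 0.21), while the gene opposite, HOXC13, differed by -0.53.

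In HN30_CR HOXB-AS1 was the transcript with the largest difference, with levels of -2.997 in HN4, -4.72 in HN4_CR, -2.62 in HN30 and 0.03 in HN30_CR. HN30_CR was highest by 2.65 over HN30 (scanner SD 0.22), and the other probe gave 2.10. HOTTIP, which lies beyond HOXA13 and is known for keeping the posterior genes of cluster A active, was dim on 3 arrays and at -4.28 in HN30_CR, at least 1.27-fold above HN30, while its other probes were dim on all arrays. HOTAIR, a transcript of cluster C that is known to bind Polycomb proteins, was at -1.27, -1.94, -2.02 and 0.09 by its brightest probe. Its 5 probes gave 2.10, 2.28, 0.72, 0.41 and 0.29 in HN30_CR, so the size depended on the probe, and under median scaling or quantile normalization the gene was not called. With normexp none of these transcripts was called in either line.

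HOXA11-AS, the transcript opposite HOXA11, was at 1.81 in HN4, 0.93 in HN4_CR, 0.37 in HN30 and 1.85 in HN30_CR. In the HN30 pair it differed by 1.48 where HOXA11 differed by -2.36, and in the HN4 pair by -0.88 where HOXA11 differed by -1.58. The pair of transcripts thus went apart in HN30_CR and the same way in HN4_CR. In cluster D, HAGLR and HAGLROS, which start near HOXD1 and HOXD3, differed by -1.21 and -1.68 in HN4_CR and by 0.28 and -0.58 in HN30_CR. HOTAIRM1, at the anterior end of cluster A, differed by 0.03 and 0.41, and HOXA10-AS by 0.08 and 0.00. The other probes of HOTAIRM1 gave -0.25 and -0.21 in HN4_CR and 0.61 and -0.66 in HN30_CR, so its sign depended on the probe. HOXC-AS1 was the transcript above 0 by the most in HN4_CR, with 0.97, and it differed by 1.91 in HN30_CR. By the probe with the highest mean level, HOXA-AS3, HOXB-AS3, HOXC-AS2 and HOXC-AS3 lay between -0.51 and 0.75 in both lines. The other probe of HOXB-AS3, well above background in HN30 alone, gave -1.48 in the HN30 pair. HOXD-AS2 was dim on all arrays.

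Genes that flank the clusters served as a view of the surrounding chromosome, and 14 of 16 were on the array. In HN4_CR 0 of the 12 measured passed the threshold, where 2.2% of all genes were called lower and 3.6% higher, with a median of -0.15. In HN30_CR 2 of 11 were called higher, where 8.35% of all genes were, and 0 lower, with a median of -0.19 (0.39 with quantile normalization). They were SKAP1 beside cluster B with 2.70 (scanner SD 0.28) and CALCOCO1 beside cluster C with 2.68 (scanner SD 0.21), and under normexp SKAP1 was not called. In HN4_CR 7 of the flanking genes were below 0, with SKAP1 (-1.44) and HIBADH (-1.35) lowest, and 5 were above 0. Around cluster D, MTX2 beside the anterior end differed by 0.20 in HN4_CR and KIAA1715 beyond the posterior end by 0.17. EVX2, which lies next to HOXD13, was well above background in HN4_CR alone, at -4.96, but its dim level in HN30 was higher, at -4.69. TAX1BP1, the flanking gene with the highest mean level, differed by -0.20 and -0.19.

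The TALE homeodomain proteins PBX, MEIS and PKNOX bind DNA together with HOX proteins, and all 11 genes listed were on the array. In HN4_CR 0 were called in either direction, with a median of -0.50 over 9 measured, where 2.2% of all genes were called lower and 3.6% higher. In HN30_CR 1 of 10 was called higher, near the 8.35% of all genes, with a median of 0.04 (-0.38 with median scaling). This was MEIS3, dim on the other 3 arrays and at -1.95 in HN30_CR, at least 6.403-fold over HN30. With normexp it was not called. MEIS2, a limb and palate cofactor, was at 1.43 in HN4, -0.41 in HN4_CR, 1.41 in HN30 and 0.45 in HN30_CR, so both resistant arrays were under their parental ones, by -1.84 (scanner SD 0.20) and -0.96. TGIF1, the gene of the list with the highest mean level, differed by -0.80 and 0.25.

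Of the 27 Polycomb genes, whose complexes place the H3K27me3 and H2AK119ub marks on silent HOX clusters, 0 were called in HN4_CR, with a median of 0.08, where 2.2% of all genes were called lower and 3.6% higher. In HN30_CR 1 was called in each direction, where 8.35% of all genes were called higher and 2.74% lower, with a median of -0.04 (0.17 with quantile normalization). PHF19, which brings the complex PRC2 to DNA, was at 5.20 in HN4, 4.84 in HN4_CR, 5.42 in HN30 and 2.92 in HN30_CR, low in HN30_CR alone by -2.50 (scanner SD 0.20). CBX7, a reader of H3K27me3, was at 2.02, 2.63, 1.46 and 3.46, highest in HN30_CR by 2.01, and was not called under median scaling or normexp. CBX6, another reader of this mark and the gene with the highest mean level, differed by 0.12 and 0.39. EZH2, an enzyme of PRC2, differed by -0.48 in HN4_CR and -1.46 in HN30_CR, while its relative EZH1 differed by 0.64 and 1.12. Of the 14 Trithorax and H3K27 demethylase genes 0 were called in either line, against the same shares of all genes, with medians of -0.10 and -0.16, the second of which turned to 0.06 under quantile normalization. DPY30, a subunit of the Trithorax enzymes with the highest mean level of the list, differed by 0.09 and -0.74. KDM6B, a demethylase that opens HOX genes, differed by 1.15 and 1.45, and KDM6A, its relative, by 1.29 and 0.35.

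Retinoic acid and the CDX factors switch HOX genes on in the embryo, and all 20 genes listed for them were on the array. In HN4_CR 2 of 16 were called lower, where 2.2% of all genes were, and 1 higher, where 3.6% were, with a median of -0.22. In HN30_CR 1 of 17 was called higher, where 8.35% of all genes were, and 0 with median scaling, with a median of 0.44 (0.02 with median scaling). CDX2, which activates central and posterior HOX genes and sets intestinal identity, was at -1.56 in HN4, -4.65 in HN4_CR, -1.92 in HN30 and -1.49 in HN30_CR. As for HOXD9 to HOXD11, only HN4_CR was low, by -3.09 (scanner SD 0.31). CYP26A1, which breaks down retinoic acid and is itself induced by it, was at 0.56, -1.77, -0.84 and 0.81, a difference of -2.33 in HN4_CR (scanner SD 0.21) and 1.65 in HN30_CR. With normexp neither CDX2 nor CYP26A1 was called. CRABP2, which carries retinoic acid to its receptor, was at -1.24, 3.51, -0.25 and 1.98, so both resistant arrays were above both parental ones, by 4.75 and 2.22 (scanner SD 0.21 each). The receptor RARG and its partner RXRA differed by -1.26 and -1.01 in HN4_CR and by 0.17 and 0.42 in HN30_CR. The other receptors measured in the HN4 pair, RARA, RXRB and RXRG, went the other way in HN4_CR, by 0.41, 0.22 and 0.63. In HN30_CR they differed by 0.57, 0.39 and -0.14. ALDH1A3, which makes retinoic acid and had the highest mean level of the list, differed by -0.93 and -0.88.

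Homeobox genes outside the HOX clusters include those of the head, where HOX genes are not used in the embryo, and all 28 listed were on the array. In HN4_CR 2 were called lower, where 2.2% of all genes were, and 0 higher, with a median of -0.47 over 19 measured, and in HN30_CR 6 were called higher and 0 lower, where 8.35% of all genes were called higher, with a median of 0.60 over 23 measured. With median scaling 3 were called higher (5.44% of all genes) and the median was 0.18, and with normexp 2 were (1.96%) and it was 0.27. The genes lower in HN4_CR were DLX5 and DLX6, neighbours that pattern the jaw. Under quantile normalization or normexp DLX6 alone was called. DLX6 was at 0.63 in HN4, -1.81 in HN4_CR, 1.44 in HN30 and 1.71 in HN30_CR, and only HN4_CR was low. DLX5 was at -3.94, -6.04, -3.26 and 0.16. It was dim in HN4_CR, at least 2.07-fold under HN4, and in HN30_CR it was above HN30 by 3.42 (scanner SD 0.24). DLX4 differed by 2.92 in HN30_CR, and OTX2, MSX2 and GSX2, also called there, were dim in HN30. MSX2 was at least 2.94-fold over HN30, while for OTX2 and GSX2 no difference can be bounded, since their levels in HN30_CR lie under the lowest level well above background in HN30. PITX1, the hindlimb and oral gene with the highest mean level of the list, differed by -0.78 and -0.37.

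**Figure D5:**
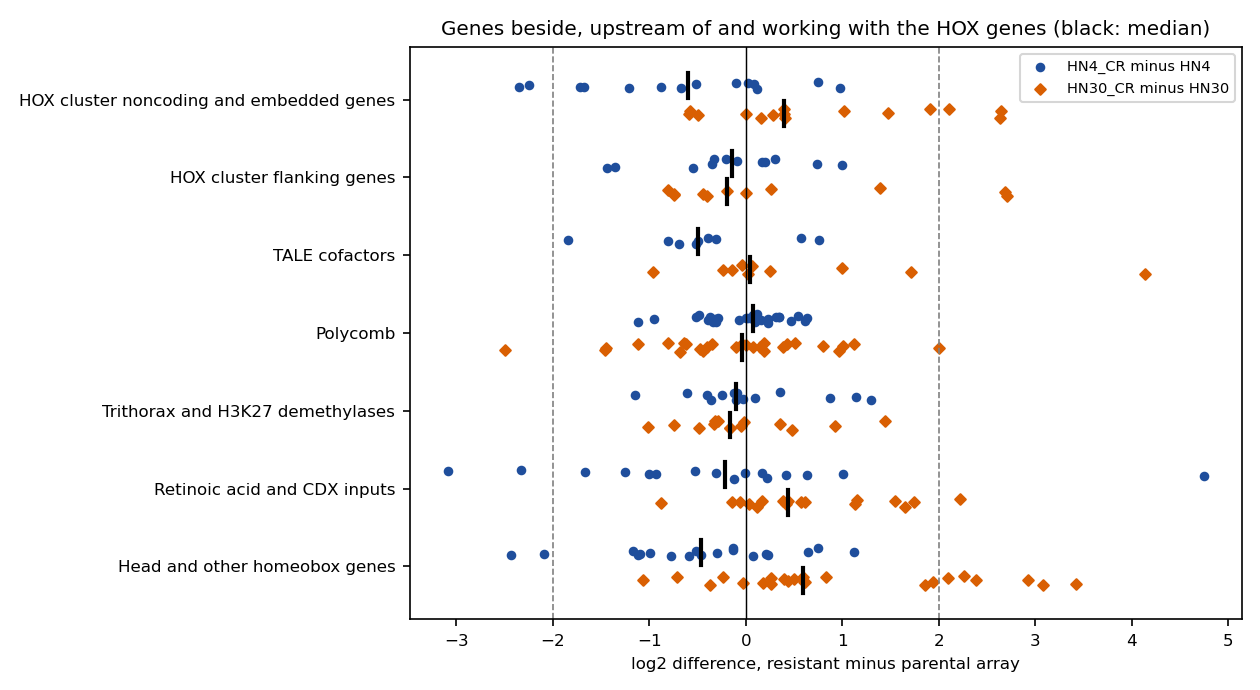
Log2 differences (x axis) of the genes of 7 lists (y axis) in the HN4 pair (circles) and the HN30 pair (diamonds), spread vertically for visibility, with medians in black and dashed lines at the thresholds. In HN4_CR the retinoic acid and CDX list reaches from -3.09 to 4.75 while the Polycomb and Trithorax genes stay between -1.15 and 1.29. With median scaling each median of the HN30 pair is lower by 0.42, which turns the sign of the noncoding and TALE medians, and quantile normalization turns that of the flanking, Polycomb and Trithorax medians.

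The labelled cell type was checked against its markers. KRT8, KRT18 and EPCAM, which are epithelial in general rather than squamous, were on the list of squamous epithelial markers. All 15 markers of that list were well above background on every array except HN30_CR, where 14 were and KRT6A was dim. Their summed signal, in units of the 75th percentile, was 817 in HN4, 806 in HN4_CR, 793 in HN30 and 666 in HN30_CR, and KRT18 was the brightest of them on every array, with levels of 8.20, 8.06, 8.27 and 7.51. That sum was set by the brightest markers, and KRT5, KRT6A, KRT14, KRT17 and TP63 added little to it. It is therefore no measure of squamous identity. The keratins of the basal and wound-healing layers differed between the arrays, with KRT5 at 2.79, -1.26, 2.84 and 0.91, KRT6A at -2.97, 0.35, 2.57 and -5.87, KRT14 at -2.68, -0.35, 0.17 and 0.39, and KRT17 at -1.78, 1.51, 0.54 and 0.73. TP63, the master factor of squamous epithelium, was at -0.77, -1.59, -0.81 and -0.87. Apart from KRT6A in HN30_CR these markers were measurable on all arrays, while the keratin levels were not the same.

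Of 11 fibroblast markers 3 were well above background on every array, with a summed signal of 4.74 in HN4, 1.70 in HN4_CR, 1.91 in HN30 and 1.13 in HN30_CR. COL1A2, COL3A1, DCN, LUM and PDGFRA were dim on all arrays, and the brightest was FAP in the parental lines (2.11 and 0.71) and COL1A1 in the resistant ones (-0.13 and -0.72). Of 7 endothelial markers 4, 3, 3 and 5 were well above background in the order HN4, HN4_CR, HN30 and HN30_CR, with a summed signal of 2.76, 4.15, 2.34 and 6.07. EGFL7 was the brightest of them and KDR and TEK were dim on all arrays. Of 7 immune markers found, 4, 5, 4 and 6 were well above background, with a summed signal of 7.51, 12.9, 4.27 and 40.5, and CD14 was the brightest of them on every array, with levels of 2.63, 3.19, 1.82 and 5.30. CD3E was dim on all but HN30_CR, and PTPRC was at -2.84, -2.94, -3.10 and -2.94. The part of these genes in the HOX differences was not tested.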

How the data were processed

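The data were 4 single-colour Agilent SurePrint arrays, 1 for each group, all on 1 slide and in 1 scan. The authors deposited the scanner output of Agilent Feature Extraction 10.7.1.1, whose processed intensity of each spot is background-subtracted per the file headers. A log2 table from the authors, with the same median of 4.65 on every array, as after quantile normalization, served as an alternative. Its further making is unknown here.

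The log2 processed intensity minus the 75th percentile of the non-control spots of the array was taken, outlier spots were left out, and spots of a probe were averaged to 58201 probes. The 75th percentile was 494 in HN4, 496 in HN4_CR, 444 in HN30 and 480 in HN30_CR, and 57.2%, 59.0%, 55.3% and 63.6% of spots were well above background. No spot was saturated. Where a gene had several probes, that with the highest mean level was taken. A probe was well above background when at least 50% of its spots were so marked. Shares of called genes are over the genes measured in the pair. The only test was that of limma 3.58.1 in R 4.3.3 (eBayes, trend on, cell line as block), tested on simulated data, where it found large changes when all genes had equal spread but not when each gene had its own, so that no genes passing says little. All else was done in Python 3.11.15, numpy 2.4.6, pandas 2.3.3 and statsmodels 0.14.6.

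The members and the lists were chosen with earlier results of these data known. The text names the HOX genes, every listed transcript of the HOX clusters, and of each other list the members past the threshold, the member with the highest mean level and the defining markers, at most 6 past the threshold for each list. MEIS2, EZH1, EZH2, KDM6A, KDM6B, RARA, RARG, RXRA, RXRB, RXRG, HIBADH, MTX2, KIAA1715, EVX2 and the keratins outside this rule were added after their values were seen. A few genes under this rule, 1 HOX gene among them, are counted but not described here. Of the 39 HOX probes that represent a gene, 37 carry an accession found in the RefSeq table of GRCh38.p14, with the same symbol in all 37, and 2 kept the name of the array. That table served for names only, and probe positions are those of the scanner files on hg19.

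The alternatives were normexp background correction (offset 50), median scaling, quantile normalization, the mean of a gene's probes, a pseudocount of 16, dim values at the lowest signal well above background, the authors' table, a threshold of 1, other filters on dim genes, and other forms of the limma fit.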

Additional observations from a re-analysis of the deposited data

Results flagged for a closer look

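The same contrast, resistant minus parental, went opposite ways in the cell lines for the HOX median and for 13 HOX genes, each of which was well above background on all 4 arrays and differed by more than 2 scanner SDs in both pairs. The scanner SD covers the error of the spots and not that between cultures. No share of all genes at 2 scanner SDs is given here, so the 13 cannot be set against genes in general. For signs of any size, 51.6% of the HOX genes measured on all arrays were below 0 in HN4_CR and above 0 in HN30_CR. Of all genes 22.9% were. With 1 array per group, how far the lines differ was not tested. The HOX median differed between the pairs by 1.21, from -0.97 in HN4_CR to 0.24 in HN30_CR, and the second value turned to -0.18 with median scaling. With that scaling 8 of the 13 genes were past 2 scanner SDs in both pairs, and not HOXC5, HOXC8, HOXC13, HOXD9 and HOXD10.

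HOXA13 differed between the pairs by 5.00, with -3.02 in HN4_CR and 1.98 in HN30_CR. HOXD10 differed between the pairs by 3.93, with -3.41 in HN4_CR and 0.52 in HN30_CR. HOXD9 differed between the pairs by 3.85 by its brighter probe, with -3.12 in HN4_CR and 0.73 in HN30_CR. Its other probe gave -0.96 and 0.98. HOXC12 differed between the pairs by 2.94, with -2.05 in HN4_CR and 0.89 in HN30_CR. For these 4 genes HN4_CR was the lowest of the 4 arrays and HN30_CR the highest. The other genes differed between the pairs by 2.81 (HOXB8), 2.25 (HOXD8), 2.15 (HOXB9), 2.02 (HOXC5), 1.78 (HOXB3), 1.72 (HOXC8), 1.70 (HOXB5), 1.45 (HOXB13) and 1.04 (HOXC13). Of the 13 genes, 5 belong to cluster B, 4 to cluster C, 3 to cluster D and 1 to cluster A. In the same order these clusters had 9, 8, 4 and 10 genes well above background on both HN4 and HN4_CR.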

How the results depend on the processing

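With normexp, 2 HOX genes were called lower in HN4_CR than in HN4 in place of 7 (0.65% of all genes in place of 2.2%), 0 lower in HN30_CR than in HN30 in place of 1 (1.31%, 2.74%), and 4 higher in HN30_CR than in HN4_CR in place of 9 (1.45%, 5.67%), and the HOX median in the HN4 pair was -0.74 in place of -0.97. A pseudocount of 16 gave 5 in place of the 9 (2.39%), and median scaling 6 (4.23%). With a threshold of 1 the counts were 15 lower in HN4_CR (8.63% of all genes), 3 higher and 2 lower in HN30_CR (19.8% and 13.2%), 1 higher and 3 lower in HN30 than in HN4 (3.32% and 7.07%), and 15 higher in HN30_CR than in HN4_CR (16.3%). Removing the trend of differences with brightness, an alternative chosen after seeing the data, gave 1 gene higher in HN30_CR than in HN30, HOXA13, in place of 0. Median scaling reversed the HOX median of the HN30 pair, from 0.24 to -0.18. It turned the split of all genes there from 8.35% higher and 2.74% lower to 5.44% and 5.39%, and quantile normalization shifted the median of all genes in that pair by -0.12. The cause was not tested.

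Apart from these, the HOX median was -1.01 to -0.86 in the HN4 pair and 0.04 to 0.30 in the HN30 pair. Of 546 single-gene differences under alternatives, 431 lay within the scanner SD of the main value and 115 did not. The sign differed from the main one in 26, and was the same under all alternatives for 32 of 34 HOX genes in the HN4 pair (not HOXB4 and HOXB6) and 26 of 34 in the HN30 pair. Limma gave 0 genes in each of 5 other forms of the fit, with a smallest adjusted p of 0.2137 to 0.6688. No paired analysis was possible within a cell line because each group has only replicate 1, and so no replicate could be left out. Resistant and parental arrays are paired only by the line, as the block of the limma fit. Signal over background limits the values near the background, where the choice of correction and of its offset sets the size of a difference.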
